A study of Arabidopsis thaliana with 12 samples.

Results

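*QQS* (AT3G30720) and AT3G30730 are 2 protein-coding genes of *Arabidopsis thaliana* on chromosome 3, and they are 2 of the 34133 genes and isoform models in the deposited expression table. Both were taken by their locus names because their levels had been seen to move in opposite ways. *QQS* was high in the wild type, and AT3G30730 was high in the *brat1nrpe1* double mutant. The levels that chose the genes are therefore described here without a test. A level is given as FPKM, a level of fragments that is scaled to the length of the transcript and to the size of the library.

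Polyadenylated RNA came from whole seedlings of the Columbia ecotype, grown for 10 days on MS medium under 16-h light. The genotypes were WT (Col-0), *brat1* (the T-DNA insertion allele *brat1-1*), *nrpe1* (the allele *nrpe1-11*) and *brat1nrpe1*, obtained by crossing the single mutants, with 3 libraries each and 12 in all. Each mutant was 1 allele, so an allele and its gene cannot be told apart. In bulk seedlings, fewer cells that express a gene and less RNA per cell cannot be told apart either.

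The libraries matched their genotypes. *BRAT1* was between 2.67 and 3.44 FPKM in the 6 libraries with the *brat1* mutation and between 9.69 and 11.4 in the 6 others, and *NRPE1* was between 1.02 and 1.42 in the 6 libraries with *nrpe1* and between 4.14 and 5.72 in the others. Shoot markers were abundant (*RBCS1A* at a median of 14226 FPKM), root hair and root markers were present (*LRX1* at 10.9, *EXPA7* at 8.90, *PRP3* at 35.2), and the petal and stamen genes *AP3* and *PI* and the seed storage genes *CRA1* and *CRC* had medians of at most 0.751. The libraries numbered 1 stood apart. By the steps between low FPKM values, which give depth on the scale of the authors' normalization and not as mapped reads, they were between 1.88 and 2.09 times as deep as replicate 3 of WT, against 0.732 to 1 for the others. The total mapped reads of the study were not used, and their ratios can differ from these. The libraries numbered 1 differed from replicates 2 and 3 of their own genotype by a median of 0.380 to 0.409 on the log2 scale. Replicates 2 and 3 of a genotype differed by only 0.0851 to 0.0907, with a spread 1.04 to 1.09 times that of counting reads, against 2.42 to 2.72 times between replicate 1 and either of them. No source used here says whether replicates 2 and 3 came from separate seedlings, so the spread between them may be technical. Results with both averaged are given below for *GDU6* and *BAM5* and for the counts over all genes.

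*QQS*, Qua-Quine Starch, is an orphan gene, a gene with no recognizable relative outside *Arabidopsis*. In *Arabidopsis* it is known to shift the allocation of carbon and nitrogen between starch and protein, and its product binds NF-YC4, a subunit of the CCAAT-binding NF-Y transcription factor. It is also known for epialleles, forms of the gene with the same sequence whose silence goes with DNA methylation before the coding part. NRPE1 is the largest subunit of RNA polymerase V, which acts in RNA-directed DNA methylation, and BRAT1 is a bromodomain protein with an AAA-type ATPase domain that acts against transcriptional silencing. AT3G30730 encodes an uncharacterized protein.

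In the TAIR10.1 annotation *QQS* lies on the plus strand at chr3:12349047-12349933 and AT3G30730 on the minus strand at chr3:12357280-12358128, so that they are transcribed towards each other. Although their numbers are near, they are not adjacent. There are 7346 bases between them and 9081 between their starts, and 3 annotated loci lie in that interval, the pseudogenes AT3G30724 and AT3G30727 and the protein-coding gene *GDU6* (AT3G30725, glutamine dumper 6), whose family acts in amino acid export. No annotated locus overlaps *QQS* or AT3G30730. *QQS* has 3 annotated transcripts of 684, 654 and 534 bases, and AT3G30730 has 2, of 521 and 742 bases. A search of the genome found no match elsewhere for *QQS* or *GDU6*. For AT3G30730 it found 10, the longest over 706 bases at 73.1% identity and none of at least 90% over 100 bases.

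The coding part of *QQS* is shown because the longest annotated form of the protein comes from 59 codons in 2 coding exons, between chr3:12349461-12349726 (reference sequence of TAIR10.1, introns removed), with the start and the stop codon in capitals.
QQS coding sequence: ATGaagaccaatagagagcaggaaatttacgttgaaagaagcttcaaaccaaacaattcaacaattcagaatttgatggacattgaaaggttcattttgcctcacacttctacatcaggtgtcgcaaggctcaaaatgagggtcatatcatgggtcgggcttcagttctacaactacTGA

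The 300 bases before each start are shown because the 2 mutants act on silencing, for which CG sites in the DNA are a target of methylation; CG sites are in capitals, and each sequence is read in the direction of its gene (*QQS* at chr3:12348747-12349046 on the plus strand, AT3G30730 at chr3:12358129-12358428 on the minus strand).
QQS promoter: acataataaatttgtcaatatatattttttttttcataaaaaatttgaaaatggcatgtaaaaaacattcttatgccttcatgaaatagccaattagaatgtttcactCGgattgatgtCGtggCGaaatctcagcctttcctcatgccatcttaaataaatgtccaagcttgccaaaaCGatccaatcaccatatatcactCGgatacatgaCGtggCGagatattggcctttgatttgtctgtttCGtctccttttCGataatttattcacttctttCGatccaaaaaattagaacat
AT3G30730 promoter: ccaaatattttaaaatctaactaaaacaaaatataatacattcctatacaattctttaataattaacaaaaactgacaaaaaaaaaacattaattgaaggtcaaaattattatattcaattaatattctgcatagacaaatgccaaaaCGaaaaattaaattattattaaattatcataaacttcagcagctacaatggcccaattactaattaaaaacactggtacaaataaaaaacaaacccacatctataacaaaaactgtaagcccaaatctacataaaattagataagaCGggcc

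The *QQS* promoter held 10 CG sites and that of AT3G30730 held 2, where the median over 27443 promoters of the same length was 6 and 97.3% held at least 1. CCAAT, the motif that gives NF-Y its name, occurred 3 times before *QQS* and 1 time before AT3G30730 on either strand. Of all promoters 51.9% held it, 82.1% held it at most 1 time and 98.9% at most 3 times. TATAAA was in neither, and 52.9% of all promoters held it on either strand. Methylation at these sites was not measured in the values used here.

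After the sequence had been seen, the *QQS* promoter was also searched for a direct repeat, and a pair of copies of 90 bases that begin 94 bases apart was found, with 60 identical bases (66.7%). The copies are shown one above the other, with CG sites in capitals.
QQS promoter, copy at chr3:12348797-12348886: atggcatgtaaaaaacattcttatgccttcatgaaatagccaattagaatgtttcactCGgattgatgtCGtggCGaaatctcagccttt
QQS promoter, copy at chr3:12348891-12348980: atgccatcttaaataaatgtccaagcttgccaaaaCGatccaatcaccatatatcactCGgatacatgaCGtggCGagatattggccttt
These copies hold 3 and 4 of the 10 CG sites, and 3 of them stand at the same places in both. By the same score, 1.32% of the 27443 promoters held a direct repeat at least as strong, and 20.1% held one at least as strong as that of AT3G30730.

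*QQS* was highest in WT, at 7.78, 9.46 and 9.17 FPKM in replicates 1, 2 and 3, a mean of 8.80 ± 0.899 (SD, n = 3). At this level it lay above 62.7% to 66.5% of the rows of its library. In *brat1* it was 0.923, 0.573 and 0.741, a mean of 0.745 ± 0.175 (SD, n = 3), which is 8.47% of the WT mean. All 3 *brat1* libraries were far below the WT libraries, and the groups did not overlap.

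In *nrpe1*, *QQS* was lower still, at 0.282, 0.473 and 0.322 FPKM, a mean of 0.359 ± 0.101 (SD, n = 3) or 4.08% of WT. In *brat1nrpe1* it was 0.128 in replicate 1, listed at 0 in replicate 2 and 0.158 in replicate 3, a mean of 0.0954 ± 0.0840 (SD, n = 3) or 1.08% of WT. The order was WT, *brat1*, *nrpe1*, *brat1nrpe1*, and no library crossed from its genotype's range into the next. *QQS* was thus above 0 in 11 of 12 libraries, and it was low rather than absent in both single mutants.

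**Figure D1:**
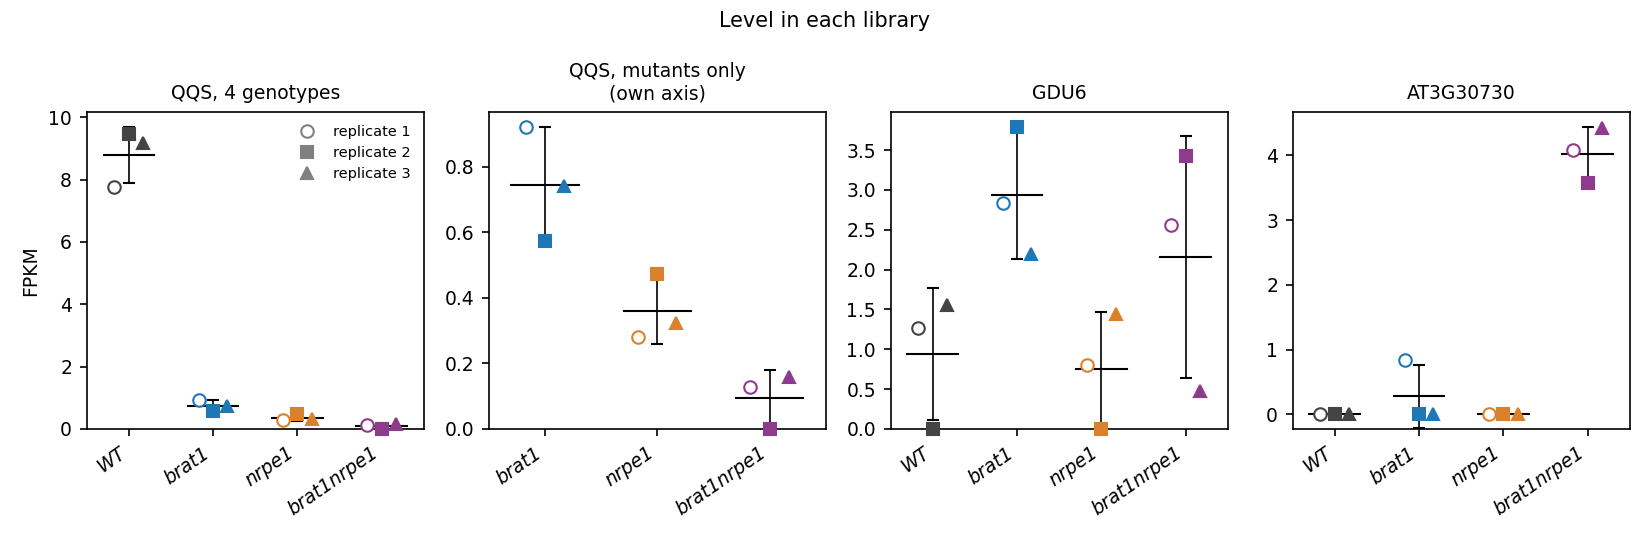
FPKM of *QQS*, *GDU6* and AT3G30730 in each library by genotype (symbols: replicates 1, 2 and 3; line and bar: mean and SD of 3 libraries), with the mutants' *QQS* levels repeated on an axis of their own. *QQS* falls from a mean of 8.80 in WT to 0.0954 in *brat1nrpe1*, and AT3G30730 is between 3.58 and 4.42 in *brat1nrpe1* and above 0 in 1 other library.

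On the scale of log2(FPKM + 0.1), *QQS* was lower than in WT by a difference of -3.41 in *brat1*, -4.29 in *nrpe1* and -5.62 in *brat1nrpe1*. Counted from the most negative difference over the 22645 genes tested, those places were 7, 4 and 2, which the choice of *QQS* by these levels made likely and from which nothing is read. Within the same replicate number, the *brat1* level was 11.9%, 6.05% and 8.08% of WT and the *nrpe1* level 3.62%, 5.0% and 3.51%, so the drop was present in replicate 1, which stood apart, and in both others. In *brat1nrpe1* it was 1.64%, 0% and 1.73%.

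The double mutant was lower than each single mutant. The *QQS* difference on the log2 scale was -1.32 between *brat1nrpe1* and *nrpe1* and -2.21 between *brat1nrpe1* and *brat1*. The former kept its sign but not its size in the other settings, at -0.31 with a pseudocount of 1, -2.55 with 0.01 and -0.73 without replicate 2, where the double mutant is listed at 0. The latter was -0.67 and -3.59 with those pseudocounts. The 3 WT libraries stood above all 9 others, a pattern that 93 of the 22645 genes tested (0.411%) showed; as *QQS* was chosen by it, nothing is read from this share. With a WT mean at least 4 times that of the others there were 3 genes (0.0132%), a limit set after the values were seen. These were *QQS*, *SADHU3-2* (AT3G42658) and AT3G06437, which all lie on chromosome 3. AT3G06437 is a transcribed pseudogene with means of 1.22 FPKM in WT and 0.0478, 0.0621 and 0.0632 in *brat1*, *nrpe1* and *brat1nrpe1*. The means of *SADHU3-2* were 2.41 in WT and 0.0505, 0.0548 and 0.0235 in the same order. AT3G06437 and *SADHU3-2* reached the mean FPKM of 0.1 needed for testing only through WT, so they had to be lower in the mutants.

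AT3G30730 was listed at 0 in all 3 WT libraries and all 3 *nrpe1* libraries. In *brat1* it was 0.841 in replicate 1 and listed at 0 in replicates 2 and 3. In *brat1nrpe1* it was 4.08, 3.58 and 4.42 FPKM, a mean of 4.02 ± 0.422 (SD, n = 3), above 53.4% to 55.7% of the rows of its library. The double mutant thus overlapped no other genotype, and the highest value outside it was in a *brat1* library. An exact 0 in this table can be a failed estimate, since 70 genes are at 0 in some library and at 100 FPKM or more in another, so no fold change against WT or *nrpe1* is given.

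The log2 difference of AT3G30730 was 5.36 between *brat1nrpe1* and WT, 5.36 between *brat1nrpe1* and *nrpe1*, and 4.28 between *brat1nrpe1* and *brat1*. These values are set largely by the pseudocount, and with 1 in place of 0.1 they were 2.33, 2.33 and 2.03. AT3G30730 passed the filter on low values only through the double mutant, so it had to differ there. All 3 *brat1nrpe1* libraries above the 9 others was a pattern of 135 genes (0.596%), and 5 (0.0221%) had there a mean at least 4 times that of the others. The other 4, named after their values were seen, were AT1G43205, AT2G42388, AT4G08602 and AT4G16460, with means in *brat1nrpe1* of 0.950, 0.295, 0.466 and 0.262 FPKM, all below that of AT3G30730. None of these 4 lies on chromosome 3. Their means in the other genotypes were at most 0.281 FPKM, so they too passed the filter largely through the double mutant.

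*QQS* and AT3G30730 were not exact opposites. *QQS* was also low in *nrpe1* and in *brat1* replicates 2 and 3, where AT3G30730 was listed at 0. Over the 12 libraries, which share genotypes and replicate numbers, Pearson's r between them on the log2 scale was -0.607, given as a description.

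FPKM carries no read counts, but low values come in steps that reads leave. With the depth of the libraries relative to each other taken from genes with an FPKM under 1, the 8 *QQS* values of at most 16 steps lay within 1.05% of whole multiples of 1 step. If 1 step is 1 read, *QQS* had 122, 52 and 69 reads in WT, 14, 4 and 5 in *brat1*, 4, 3 and 2 in *nrpe1* and 2, 0 and 1 in *brat1nrpe1*. These are approximate, and the intervals that follow cover counting error only. For each gene counted in this way the step was the largest that matched, so the reads can be too few.

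Summed over the 3 libraries, *QQS* had about 243 reads in WT, 23 in *brat1*, 9 in *nrpe1* and 3 in *brat1nrpe1*, with 95% Poisson intervals of 213 to 276, 14.6 to 34.5, 4.12 to 17.1 and 0.619 to 8.77. The intervals of *brat1* and *nrpe1* overlapped, as did those of *nrpe1* and *brat1nrpe1*. Overlap of separate intervals is no test of a difference, and the differences between the 3 mutants were not tested. Taken as a count and not as a failed estimate, the listed 0 in *brat1nrpe1* replicate 2 allows up to 3 reads. That is 0.433 FPKM, which is within the range of *nrpe1*. The limit of 3 reads is a set value and not the upper end of a Poisson interval.

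For AT3G30730 the step is less certain. The largest step that matched its 4 values above 0 gave 3 reads in *brat1* replicate 1 and 15, 6 and 7 in *brat1nrpe1*, and smaller steps, with more reads, matched as well. On that step, 3 reads correspond to between 0.794 and 2.26 FPKM by library. The 0s in *brat1* replicates 2 and 3 therefore do not separate them from the 0.841 in replicate 1, whose library was about 2.01 times as deep as replicate 3 of WT by the same steps. Summed, *brat1nrpe1* had 28 reads (18.6 to 40.5), *brat1* had 3 (0.619 to 8.77), and WT and *nrpe1* had 0 (up to 3.69 each). These sums describe the values that chose the gene.

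**Figure D2:**
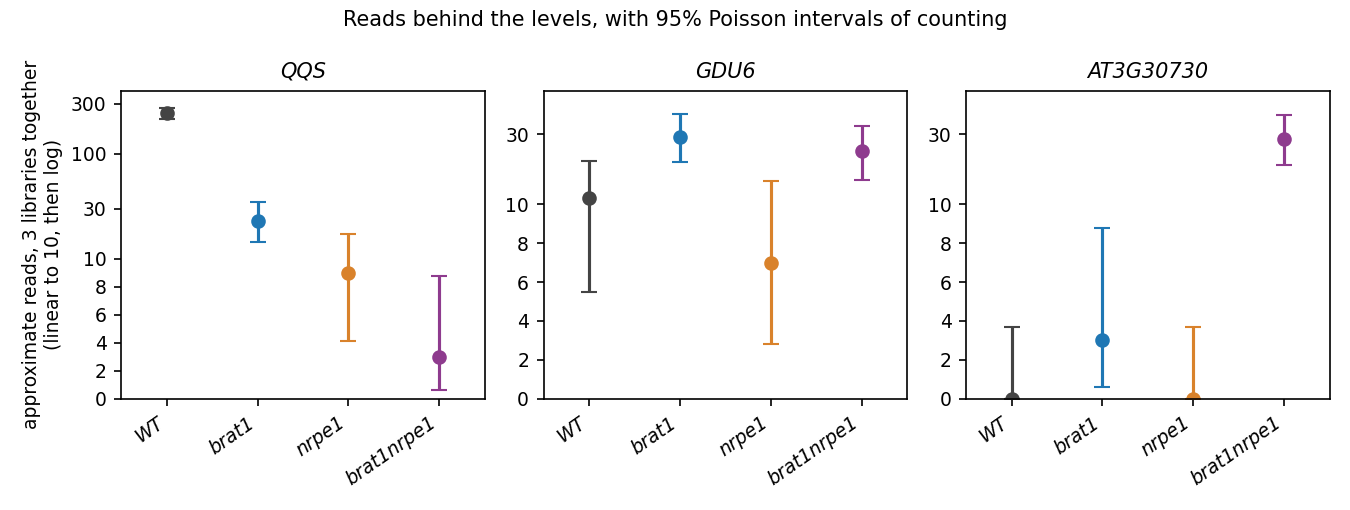
Approximate reads of *QQS*, *GDU6* and AT3G30730 summed over the 3 libraries of each genotype, with 95% Poisson intervals that cover counting error only; the axis is linear up to 10 reads and logarithmic above. For *QQS* the intervals of neighbouring mutants overlap, and for AT3G30730 that of *brat1nrpe1* runs from 18.6 to 40.5.

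Which other loci of the neighbourhood moved was asked in a window from 100 kb before *QQS* to 100 kb after AT3G30730. Beside the 2 genes it held 48 listed rows of 43 loci, and 44 of these rows were of pseudogenes. Few of these rows had signal, with 39 of the 48 rows (81.3%) at 0 in every library, against 22.8% of all 34133 rows. The share among pseudogenes alone was not counted. As only uniquely mapped reads were kept, a 0 at a repeated sequence does not show silence. Of the 9 rows with some signal, 6 did not reach the mean FPKM of 0.1 needed for testing, and the highest single value among them was 0.727 for AT3G30740, a pseudogene of a ribosomal protein, in 1 *nrpe1* library. The others of these 6 were AT3G30703, AT3G30722, AT3G30727, AT3G30749 and AT3G30770, with no value above 0.0396 FPKM.

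The 3 tested rows were *GDU6*, the pseudogene AT3G30737 and *ERD5* (AT3G30775, a proline dehydrogenase that acts in proline breakdown). None passed the threshold of an unadjusted P under 0.01 and a log2 difference over 1 or under -1 in any of 5 comparisons by limma. Of all genes tested, 0.384% passed in *brat1* against WT, 0.662% in *nrpe1* against WT, 0.839% in *brat1nrpe1* against WT, 0.508% in *brat1nrpe1* against *nrpe1* and 0.433% in *brat1nrpe1* against *brat1*. At an unadjusted p under 0.05 there was 1, AT3G30737 in *brat1* against WT, and of all genes 2.95%, 3.04%, 5.34%, 4.25% and 2.21% were under it in the same order.

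*GDU6*, the gene between the pair, passed the threshold in no comparison of that fit, and its levels are given as a description. It was 1.27, 0 and 1.56 FPKM in WT and 0.808, 0 and 1.44 in *nrpe1*, and the listed 0 was in replicate 2 both times. It was 2.83, 3.8 and 2.19 in *brat1* and 2.57, 3.43 and 0.480 in *brat1nrpe1*. The 3 *brat1* libraries lay above all WT and *nrpe1* libraries, and those of *brat1nrpe1* lay above them in replicates 1 and 2 and among them in replicate 3. How many of all genes separate in this way was not counted. The mean was 2.94 ± 0.808 in *brat1* and 0.943 ± 0.829 in WT (SD, n = 3 each).

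By limma with each library counted, the log2 difference of *GDU6* between *brat1* and WT was 2.28 (SE 1.27, adjusted p of 1) and not past the threshold. With replicates 2 and 3 averaged, a setting added after the data had been seen, *GDU6* was past the threshold as higher in *brat1* than in WT (limma log2 difference 1.46), in *brat1nrpe1* than in WT (1.09) and in *brat1nrpe1* than in *nrpe1* (1.44). The differences hang on replicate 2, where WT and *nrpe1* are listed at 0. Without it the first was 0.78, the second changed sign to -0.28 and the last was 0.07, and none passed. With replicates 2 and 3 averaged, all 3 had an SE of 0.276 and an adjusted p of 1, and in that setting 0.212%, 0.446% and 0.305% of all genes passed. In steps, *GDU6* had about 11 reads in WT, 29 in *brat1*, 7 in *nrpe1* and 23 in *brat1nrpe1*, so its calls rest on few reads. These numbers are rougher than those of *QQS*, since its values lay up to 4.54% from whole multiples of the step (0.42 of a step). Taken as a count and not as a failed estimate, a listed 0 allows up to 3 reads by the same set limit. That is 1.60 FPKM in WT replicate 2 and 1.38 in *nrpe1* replicate 2, as high as the other libraries of WT or close to those of *nrpe1*. These limits rest on the largest step that matched, and a smaller step, with more reads, would lower them.

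AT3G30737 was 0.178, 0.342 and 0.276 FPKM in WT and 0.108, 0.129 and 0.160 in *brat1*, a log2 difference of -0.63 (limma, SE 0.268, adjusted p of 1). The difference was within the log2 limits. *ERD5* had means of 19.9 ± 3.06 in WT and 20.5 ± 1.52 in *brat1nrpe1* (SD, n = 3 each), and its log2 difference between *brat1* and WT was -0.012 by limma (adjusted p of 1).

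**Figure D3:**
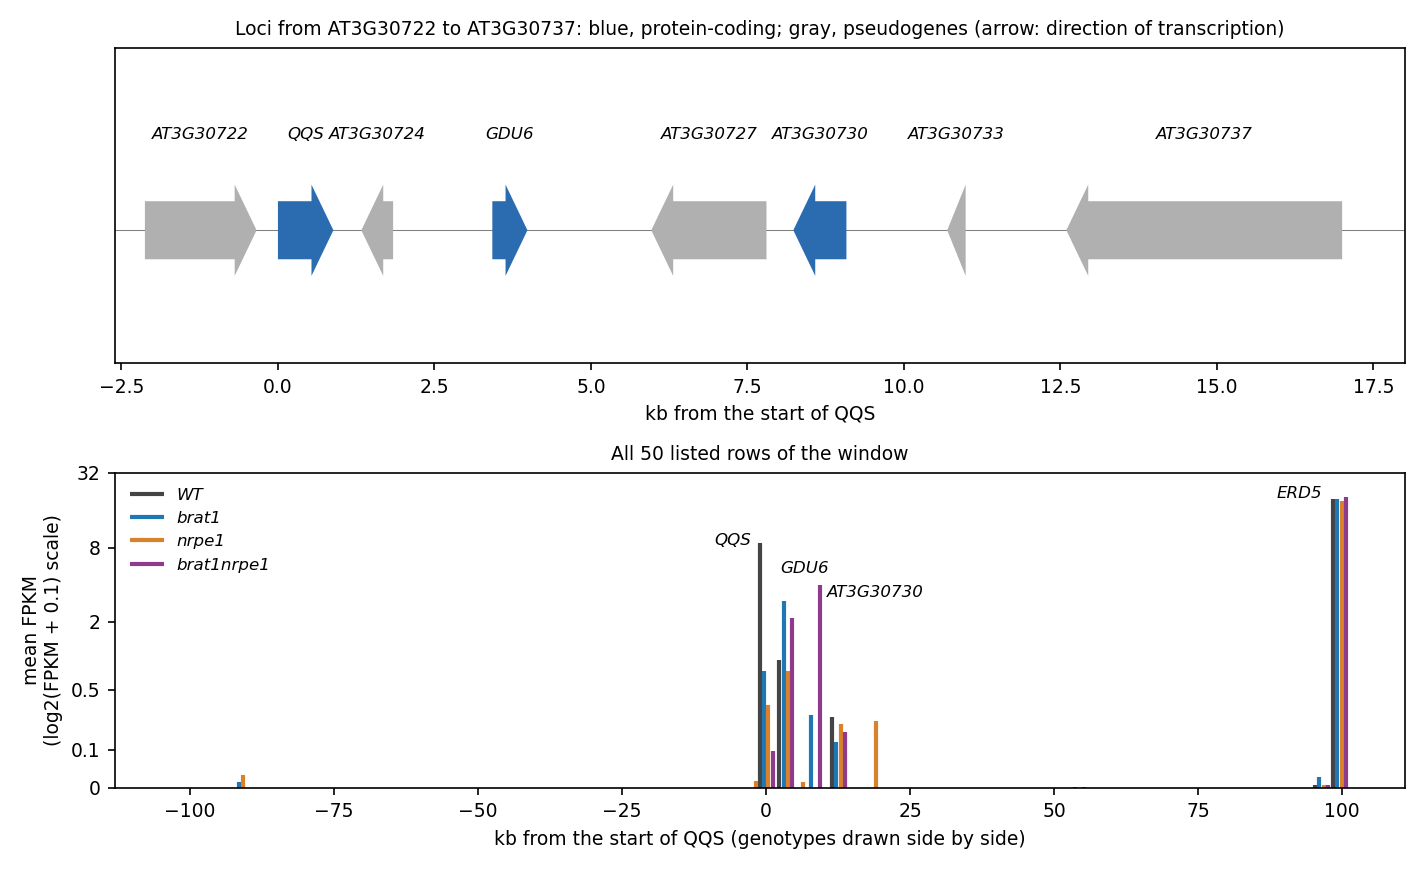
Top, loci around *QQS* and AT3G30730 drawn to scale by distance from the start of *QQS*; bottom, mean FPKM in each genotype for the 50 listed rows of the window, on a log2(FPKM + 0.1) scale. Signal stands at *QQS*, *GDU6*, AT3G30730, AT3G30737 and *ERD5* and, in *nrpe1*, at AT3G30740, the other rows above 0 are barely visible, and 39 rows are at 0 throughout.

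The genes whose levels were most like those of *QQS* over the 12 libraries were found by Pearson's r on log2(FPKM + 0.1). These libraries share genotypes and replicate numbers, and r says nothing of the size of a change. They were AT4G02630, a protein kinase (r = 0.952), *SADHU3-2*, a Sadhu retroelement pseudogene (0.923), AT2G22590, a glycosyltransferase (0.917), the transcribed pseudogene AT2G04110 (0.907) and *AIR3*, a subtilisin-like protease (0.898). Of these, only *SADHU3-2* had a drop of the size of that of *QQS*. It was 2.62, 2.12 and 2.49 FPKM in WT and between 0 and 0.0866 in the 9 others. As it passed the filter on low values only through WT, it had to be lower in the mutants. The means of AT4G02630 went from 12.4 in WT to 10.9 in *brat1nrpe1*, and its highest library was 1.17 times its lowest.

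For AT3G30730 the 5 were *PYL4*, an abscisic acid receptor (r = 0.952), *PLSP1*, a plastid signal peptidase (0.930), *SHD*, an HSP90 chaperone (0.913), *CLPP3*, a Clp protease subunit (0.907), and *GLX1*, a glyoxalase (0.905). All were abundant, and their highest library was 1.12 to 1.53 times their lowest. For *PYL4* the mean was 53.4 ± 1.15 in *brat1nrpe1*, against 37.0 ± 1.91 in WT, 39.5 ± 4.83 in *brat1* and 40.5 ± 1.33 in *nrpe1* (± SD over 3 libraries). The lists were not steady. Without replicate 1, 1 of the 5 genes of *QQS* and 0 of the 5 of AT3G30730 came up again.

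As *QQS* is named for its part in starch, 40 genes of starch metabolism were followed, 18 of synthesis and 22 of breakdown, and all 40 were tested. None passed the threshold by limma in any of the 5 comparisons. These were *brat1*, *nrpe1* and *brat1nrpe1* against WT, then *brat1nrpe1* against *nrpe1* and against *brat1*. In that order, 2, 2, 2, 1 and 2 of 40 had an unadjusted limma p under 0.05, beside 2.95%, 3.04%, 5.34%, 4.25% and 2.21% of all genes tested. The median log2 difference of the 40 was -0.02, -0.07, 0.01, 0.08 and 0.04 in that order, beside medians over all genes tested of 0.0021, 0.0077, 0.012, 0 and 0.0070.

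The most abundant genes of each class differed by less than the log2 limits between genotypes. *APS1*, the small subunit of ADP-glucose pyrophosphorylase, was 276, 182 and 181 FPKM in WT and 274, 182 and 185 in *brat1*. *APL1*, a large subunit of the same enzyme, had means of 164 in WT, 177 in *brat1*, 157 in *nrpe1* and 174 in *brat1nrpe1*. What moved was replicate 1. *PHS2*, the glucan phosphorylase of the cytosol, was 249.8, 25.7 and 25.7 in WT and 236, 21.2 and 22.3 in *brat1*, and *PHS1*, that of the plastid, was 171, 61.1 and 61.9 in WT. In every genotype both were higher in replicate 1. *PHS2* was 229, 19.1 and 19.8 in *nrpe1*, lower than in WT within each replicate number, a log2 difference of -0.31 for which a blocked limma fit gave an adjusted p of 0.0293.

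In a fit blocked on replicate number, which takes out that division, 7, 12, 12, 16 and 8 of the 40 had a limma p under 0.05, or 17.5%, 30%, 30%, 40% and 20%, beside 13.3%, 12.9%, 21.3%, 18.9% and 10.8% of all genes tested. *BAM5*, a beta-amylase found outside the plastid, was then past the threshold, lower in *nrpe1* than in WT (limma log2 difference -1.35, SE 0.287, adjusted p of 0.0659) and higher in *brat1nrpe1* than in *nrpe1* (1.36, SE 0.287, adjusted p of 0.0369). Of all genes, 0.901% and 0.813% passed in that setting. No other starch gene was past both limits in any setting tried. With the block, smaller differences had adjusted p under 0.05 by limma. The blocked fit counts replicates 2 and 3 as separate, though their spread was only 1.04 to 1.09 times that of counting reads. If that spread is technical, the adjusted p that follow, and that of *PHS2* above, are too low. They are not given with both replicates averaged, nor beside a share of all genes with an adjusted p under 0.05. *BAM9*, a beta-amylase family member, was lower in *brat1nrpe1* than in WT (-0.56, adjusted p of 0.00243) and than in *brat1* (-0.55, adjusted p of 0.00864). *LSF2*, a glucan phosphatase, was higher in *brat1nrpe1* than in *brat1* (0.45, adjusted p of 0.0399), and *APL1* and *ISA2*, an isoamylase-type debranching enzyme, were higher in *brat1nrpe1* than in *nrpe1* (0.15 and 0.24, adjusted p of 0.0490 and 0.0451).

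*BAM5* was 6.11, 14.1 and 13.3 FPKM in WT, 1.96, 5.61 and 5.97 in *nrpe1* and 2.72, 19.3 and 21.8 in *brat1nrpe1*. The drop in *nrpe1* was present within every replicate number. The double mutant lay above WT in replicates 2 and 3 and below it in replicate 1. With replicates 2 and 3 averaged, *BAM5* passed in no comparison.

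**Figure D4:**
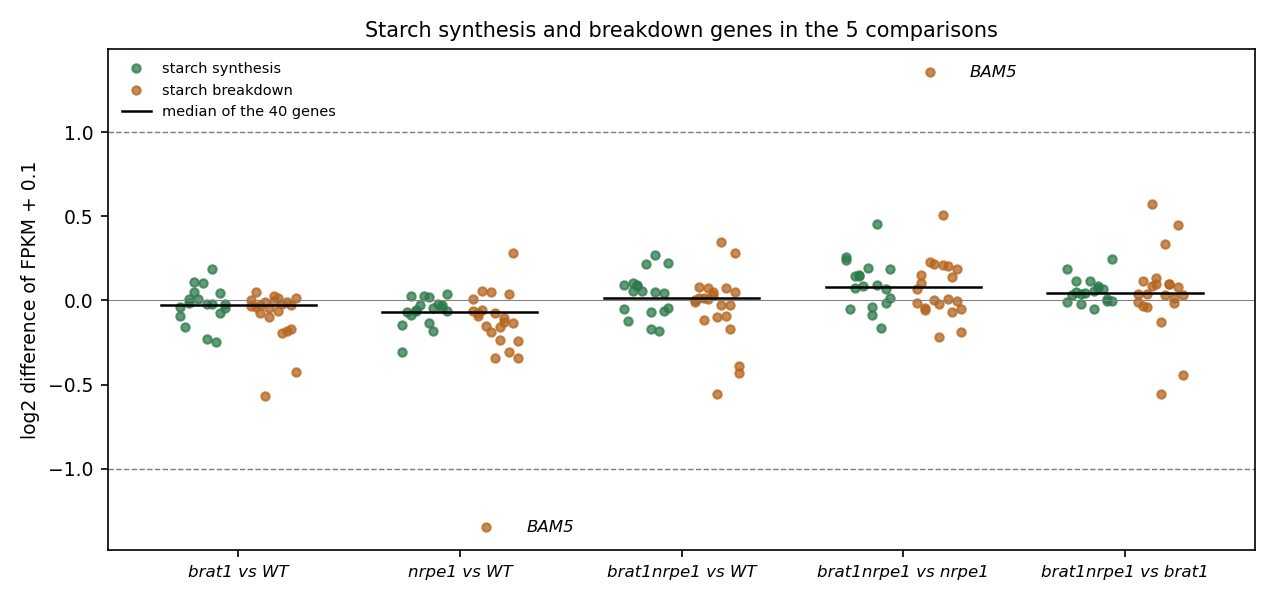
Log2 difference of FPKM + 0.1 for the 40 starch genes in each of the 5 comparisons, by class, with the median of the 40 as a line and the limits of 1 and -1 dashed. Medians lie between -0.07 and 0.08, and only *BAM5* lies past a limit, without the P needed when the replicate number is not a block.

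*NF-YC4*, whose product binds that of *QQS*, was 36.0, 38.3 and 37.7 FPKM in WT, 35.2, 34.0 and 32.1 in *brat1*, 32.6, 41.3 and 47.6 in *nrpe1* and 31.3, 38.8 and 36.7 in *brat1nrpe1*. Its log2 difference between *brat1* and WT was -0.15 by limma (SE 0.133, unadjusted p of 0.301). Of *NF-YC1*, *NF-YC2*, *NF-YC3*, *NF-YC4* and *NF-YC9*, 0 of 5 passed the threshold by limma in the 5 comparisons, and 0 had an unadjusted p under 0.05. The shares of all genes in that fit, which had no block, are given above. The largest difference was that of *NF-YC2* between *brat1nrpe1* and *nrpe1*, -0.43 on the log2 scale (adjusted p of 1 by limma). A fit with the replicate block left its size as it was and gave an adjusted p of 0.00890, and the difference stayed within the log2 limits. In that fit 0, 1, 2, 1 and 2 of the 5 had an unadjusted p under 0.05 in the order of comparisons above. The shares of all genes tested were 13.3%, 12.9%, 21.3%, 18.9% and 10.8%. Between *brat1nrpe1* and WT, *NF-YC2* (-0.35, adjusted p of 0.0139 by limma) and *NF-YC9* (-0.18, adjusted p of 0.0420) were lower. As for the starch genes, the adjusted p with the block count replicates 2 and 3 as separate. They are not given with both averaged.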

How the data were processed

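Seedling mRNA was enriched with oligo(dT) beads and sequenced in 12 libraries. The authors aligned the reads to TAIR10 with TopHat2, allowing up to 2 mismatches, and kept uniquely mapped reads. Per the submitters' processing notes TopHat2 2.0.12, Bowtie, Cufflinks 2.0.1 and Cuffdiff were used. The deposited values are FPKM per gene or isoform model for each library, and no read counts or totals were used. Coordinates and sequences were read from the RefSeq annotation of TAIR10.1, which held the loci of 33389 of the 34133 rows.

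Groups were taken from the sample labels. Members and gene lists were chosen with earlier results of these data known. *QQS* and AT3G30730 were described by level and by the difference of mean log2(FPKM + 0.1), which understates the change of low genes. The other genes were tested with limma 3.58.1 in R 4.3.3 (4 genotype means, moderation with a trend, two-sided, 22645 genes whose FPKM averaged 0.1 or more). The threshold was an unadjusted P under 0.01 and a log2 difference over 1 or under -1, with Benjamini-Hochberg adjusted p beside it. The code was run on simulated data whose noise was independent between libraries. That run does not cover the deviations that libraries of 1 replicate number share, which are described below. Python 3.11.15 with numpy 2.4.6, pandas 2.3.3, scipy 1.17.1 and matplotlib 3.10.9 was used for the rest, and blastn 2.17.0 for copies in the genome.

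Beside the members the named genes were *BRAT1* and *NRPE1*, the loci within 100 kb, the 5 genes most correlated with each member, the starch genes past the threshold or else the 2 most abundant of each class, and *NF-YC4*. Others were named after their values were seen. Relative depth came from the steps between low FPKM values, and exact Poisson intervals (95%) cover counting error only.

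Deviations from the genotype means correlated between libraries that share a replicate number, with r from 0.593 to 0.840 over 18 pairs and a mean of 0.682. Over 36 pairs with different numbers r ran from -0.728 to 0.619, with a mean of -0.271. Deviations from a group's own mean cancel within the group, which lowers r between different numbers. As replicate 1 stood apart and replicates 2 and 3 were close, these values do not show pairing by each number. The block on replicate number rests on them and not on a statement in the labels. Alternatives were other pseudocounts, rescaling, filters, the replicate block, fits of 6 libraries, no trend, an adjusted threshold, each replicate number left out and, added after seeing the data, replicates 2 and 3 averaged. P-values measure the spread between these libraries, which may be technical.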

Additional observations from a re-analysis of the deposited data

How the results depend on the processing

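The 5 *QQS* differences and the 3 of AT3G30730 in *brat1nrpe1* kept their direction in the 7 settings tried, and the size followed the pseudocount. For *QQS* in *brat1nrpe1*, pseudocounts of 1 and 0.01 gave -0.31 and -2.55 against *nrpe1* and -0.67 and -3.59 against *brat1*, and leaving out replicates gave -1.63 to -0.73 and -2.46 to -1.93. With a pseudocount of 1 the *QQS* difference from WT was -2.49 in *brat1*, -2.85 in *nrpe1* and -3.16 in *brat1nrpe1*, and that of AT3G30730 in *brat1nrpe1* was 2.33 against WT, 2.03 against *brat1* and 2.33 against *nrpe1*. With 0.01, *QQS* was at -4.61 in *nrpe1* and -7.16 in *brat1nrpe1*, and AT3G30730 at 8.65, 6.51 and 8.65. Leaving out each replicate number in turn gave -3.65 to -3.20, -4.41 to -4.21 and -5.87 to -5.14 for *QQS* against WT, and 5.29 to 5.44 against WT, 3.68 to 5.35 against *brat1* and 5.29 to 5.44 against *nrpe1* for AT3G30730.

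Among neighbouring loci, 1 (*GDU6*) passed the threshold with replicates 2 and 3 averaged, with and without the replicate block. It passed in *brat1* against WT, in *brat1nrpe1* against WT and in *brat1nrpe1* against *nrpe1*. With both the block and averaging, its limma adjusted p were 0.167, 0.109 and 0.115 in that order. In that setting 113, 234 and 137 of the 22645 genes tested passed, against 48, 101 and 69 with averaging alone. As described above, these *GDU6* differences hang on replicate 2, where WT and *nrpe1* are listed at 0. In the starch list 1 gene, *BAM5*, passed in *nrpe1* against WT and in *brat1nrpe1* against *nrpe1*, with the replicate block and without replicate 1, so that leaving out replicates gave 0 to 1. Without replicate 1 the fit rests on replicates 2 and 3 alone, whose spread was only 1.04 to 1.09 times that of counting reads. The share of all genes that passed in that setting is not given, so nothing is read from the call. The block changed no other call of these lists. Over all genes, averaging replicates 2 and 3 lowered the calls from 87, 150, 190, 115 and 98 to 48, 103, 101, 69 and 63 in the 5 comparisons, and the block raised them to 139, 204, 280, 184 and 132. The cause of these changes was not tested. Depth limits the *QQS* values of the mutants, which rest on 0 to 14 approximate reads a library.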
